A study of Mus musculus with 8 samples.

Results

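A set of 40 genes that answer to low oxygen or carry out glycolysis was followed in mouse epidermis of 3 genotypes: WT, Tcl1-/- and K14-TCL1. The genes were taken by symbol, older synonyms included, from the deposited Affymetrix table, and 35 of the 40 listed genes could be tested among 9731 tested genes in all. Of the other 5, Adm stayed under the intensity filter, Ankrd37 and Pfkfb4 were not named in the table, Eno1 had only probe sets shared with other genes, and Gapdh had only control and shared probe sets. WT mice were C57bl/6, Tcl1-/- mice lacked mouse Tcl1, and K14-TCL1 mice also lacked it and carried TCL1A under the keratin 14 promoter, which is active in basal keratinocytes (KCs), so WT was the only genotype here with its own Tcl1. The mice were adults, all were depilated, skin was taken 3 days later, and total RNA came from epidermal sheets freed from the dermis by overnight incubation with dispase in the cold. There were 3 arrays of Tcl1-/-, 3 of K14-TCL1 and 2 of WT epidermis. The methods describe 3 animals and 3 separate chips for each genotype, while only 2 WT arrays were among the 8 samples. The Tcl1 probe set read 29.8 to 35.8 over the 8 arrays with no separation of the genotypes, so it did not check the labels.

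Cells sense oxygen through the EGLN prolyl hydroxylases, which use it to mark the HIF alpha subunits for destruction by the VHL ubiquitin ligase. When oxygen is low, HIF1A or EPAS1 escapes this, pairs with ARNT and binds the hypoxia response element, whose core is ACGTG or GCGTG. Its targets bring in glucose, run glycolysis, slow pyruvate entry into mitochondria, remove mitochondria and export acid. The epidermis has no blood vessels of its own. HIF activity is set largely by protein stability, and the arrays measured mRNA only.

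RefSeq promoter windows (GRCm38.p6, 250 bases before to 50 after a start site, 300 in all) were found by symbol for 35 of the 40 genes. No window was found for Angptl4, Bnip3l, Epas1, Ndrg1 and Slc2a3. Both core forms were searched on both strands, and a CACGTG palindrome counted once on each strand. The windows of 6 genes are shown because the results below turn on them. These are the 3 with the largest rise in Tcl1-/- (Bnip3, Egln3 and P4ha2), the glucose carrier Slc2a1 and the lactate enzyme Ldha. The last is the HIF alpha subunit Hif1a, which fell. Each window is written in the direction of its gene, and capitals mark a match on either strand.
Bnip3, chr7:138909457-138909756, minus strand: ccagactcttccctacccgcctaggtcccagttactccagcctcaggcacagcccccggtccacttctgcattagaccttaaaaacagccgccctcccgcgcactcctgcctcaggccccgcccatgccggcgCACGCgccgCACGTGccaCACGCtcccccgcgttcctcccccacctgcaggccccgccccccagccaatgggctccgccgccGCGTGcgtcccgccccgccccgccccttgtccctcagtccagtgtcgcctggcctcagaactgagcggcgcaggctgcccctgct
Egln3, chr12:54203825-54204124, minus strand: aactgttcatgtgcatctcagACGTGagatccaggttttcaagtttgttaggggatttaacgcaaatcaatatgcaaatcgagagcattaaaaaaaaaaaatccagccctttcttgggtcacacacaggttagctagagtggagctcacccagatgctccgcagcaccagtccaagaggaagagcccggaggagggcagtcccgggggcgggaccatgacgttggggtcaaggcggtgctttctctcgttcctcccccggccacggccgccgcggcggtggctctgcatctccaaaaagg
P4ha2, chr11:54100674-54100973, plus strand: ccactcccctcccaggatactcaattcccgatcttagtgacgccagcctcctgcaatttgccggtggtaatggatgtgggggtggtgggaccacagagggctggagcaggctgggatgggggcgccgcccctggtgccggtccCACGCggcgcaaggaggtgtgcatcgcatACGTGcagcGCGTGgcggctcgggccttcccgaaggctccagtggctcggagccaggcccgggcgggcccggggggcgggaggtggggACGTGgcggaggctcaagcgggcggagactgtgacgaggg
Slc2a1, chr4:119108495-119108794, plus strand: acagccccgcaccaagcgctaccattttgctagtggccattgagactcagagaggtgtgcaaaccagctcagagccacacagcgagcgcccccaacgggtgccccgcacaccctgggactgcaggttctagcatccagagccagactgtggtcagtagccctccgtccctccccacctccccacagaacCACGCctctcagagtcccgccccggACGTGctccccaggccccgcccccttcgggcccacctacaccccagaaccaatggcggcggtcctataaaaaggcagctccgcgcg
Ldha, chr7:46845554-46845853, plus strand: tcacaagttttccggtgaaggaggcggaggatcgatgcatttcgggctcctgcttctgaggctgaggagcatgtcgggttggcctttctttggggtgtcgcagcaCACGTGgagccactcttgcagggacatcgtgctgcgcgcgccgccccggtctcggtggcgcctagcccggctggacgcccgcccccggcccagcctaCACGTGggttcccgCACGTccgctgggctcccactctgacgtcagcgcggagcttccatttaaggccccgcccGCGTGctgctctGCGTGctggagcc
Hif1a, chr12:73907617-73907916, plus strand: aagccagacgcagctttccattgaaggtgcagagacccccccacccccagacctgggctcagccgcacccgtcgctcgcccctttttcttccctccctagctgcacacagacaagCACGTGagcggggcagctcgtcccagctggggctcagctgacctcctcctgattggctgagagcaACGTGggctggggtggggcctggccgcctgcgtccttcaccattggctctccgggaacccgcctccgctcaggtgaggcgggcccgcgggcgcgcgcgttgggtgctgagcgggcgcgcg
The Bnip3 window held 5 matches, 4 of which began between 117 and 99 bases before the start. The Egln3 window held 1 match, 229 bases before the start, and the P4ha2 window 4. Slc2a1 held 2, Hif1a 3 and the Ldha window shown here 7, while a second Ldha window held 2. At least 1 match stood in a window of 31 of the 35 genes (88.6%), against 67.4% of the 7646 tested genes with a window and 46.7% of all 27025 genes with one. By single windows the shares were 79.6% of 49 and 43.8% of 32851. Among the genes higher in Tcl1-/- than in WT, 20 of 21 with a window held a match, and 11 of 14 among the other listed genes. These 14 include Adm, Ankrd37, Eno1, Gapdh and Pfkfb4, which were not among the tested genes and each held a match. They are therefore not a group shown to be unchanged. These matches describe the letters only, and binding was not measured.

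The study compared Tcl1-/- with WT to see what loss of Tcl1 changes in KCs, and K14-TCL1 with both to see what the transgene restores. In Tcl1-/- epidermis the larger part of these genes stood above WT. In all, 23 of the 35 (65.7%) were higher, among them the mitophagy receptor Bnip3 (2.23-fold), the oxygen sensor Egln3 (2.05-fold) and the glucose carrier Slc2a1 (1.43-fold). A gene was called at an adjusted p under 0.05 in limma, and 14.4% of all tested genes were called higher in this comparison. Another 2 of the 35, Hif1a and Hk2, were lower, where 12.2% of all tested genes were. The median log2 difference was 0.24 over the 35 genes, 30 of them above 0 and 5 below, and 0.008 over all tested genes. Besides Bnip3 and Egln3, no listed gene reached a 2-fold difference. In whole epidermis, more cells of a kind and more RNA in each cell cannot be told apart.

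In K14-TCL1 epidermis against WT, 6 genes were higher (Aldoc, Bnip3, Egln3, Ndrg1, Slc2a1 and Tpi1), against a background of 11.7%, and 3 were lower (Hif1a, Hk2 and Pfkfb3), against 9.84%. These shares, 17.1% and 8.57% of the 35, lie near those of all genes. The median log2 difference was 0.039 over the 35 genes, 21 of them above 0 and 14 below, and 0.01 over all tested genes. Set directly against K14-TCL1, Tcl1-/- epidermis had 24 of the 35 genes higher, with 13.9% of all genes called so, and 2 lower (Gpi1 and Hif1a), with 12.7%. The median here was 0.19, against 0 over all tested genes. The Gpi1 call rested on its brightest probe set, and its other probe sets had the opposite sign and were not called. The 3 comparisons share arrays with each other and are given side by side, not as independent results. No call was made in limma for 8 genes in any of them: Angptl4, Arnt, Car9, Car12, Egln2, Epas1, Slc2a3 and Vhl.

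**Figure D1:**
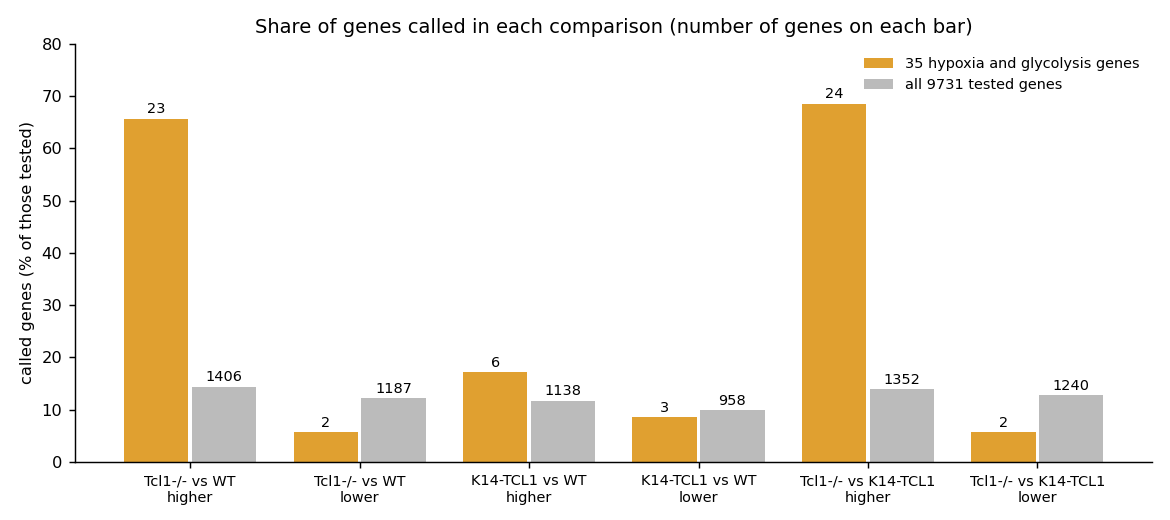
Share of tested genes called higher or lower in each comparison (y axis, percent), for the 35 hypoxia and glycolysis genes and for all 9731 tested genes, with the number of genes on each bar. The members stand at 23 and 24 genes called higher where Tcl1-/- is the first genotype, and at 6 where K14-TCL1 is compared with WT.

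**Figure D2:**
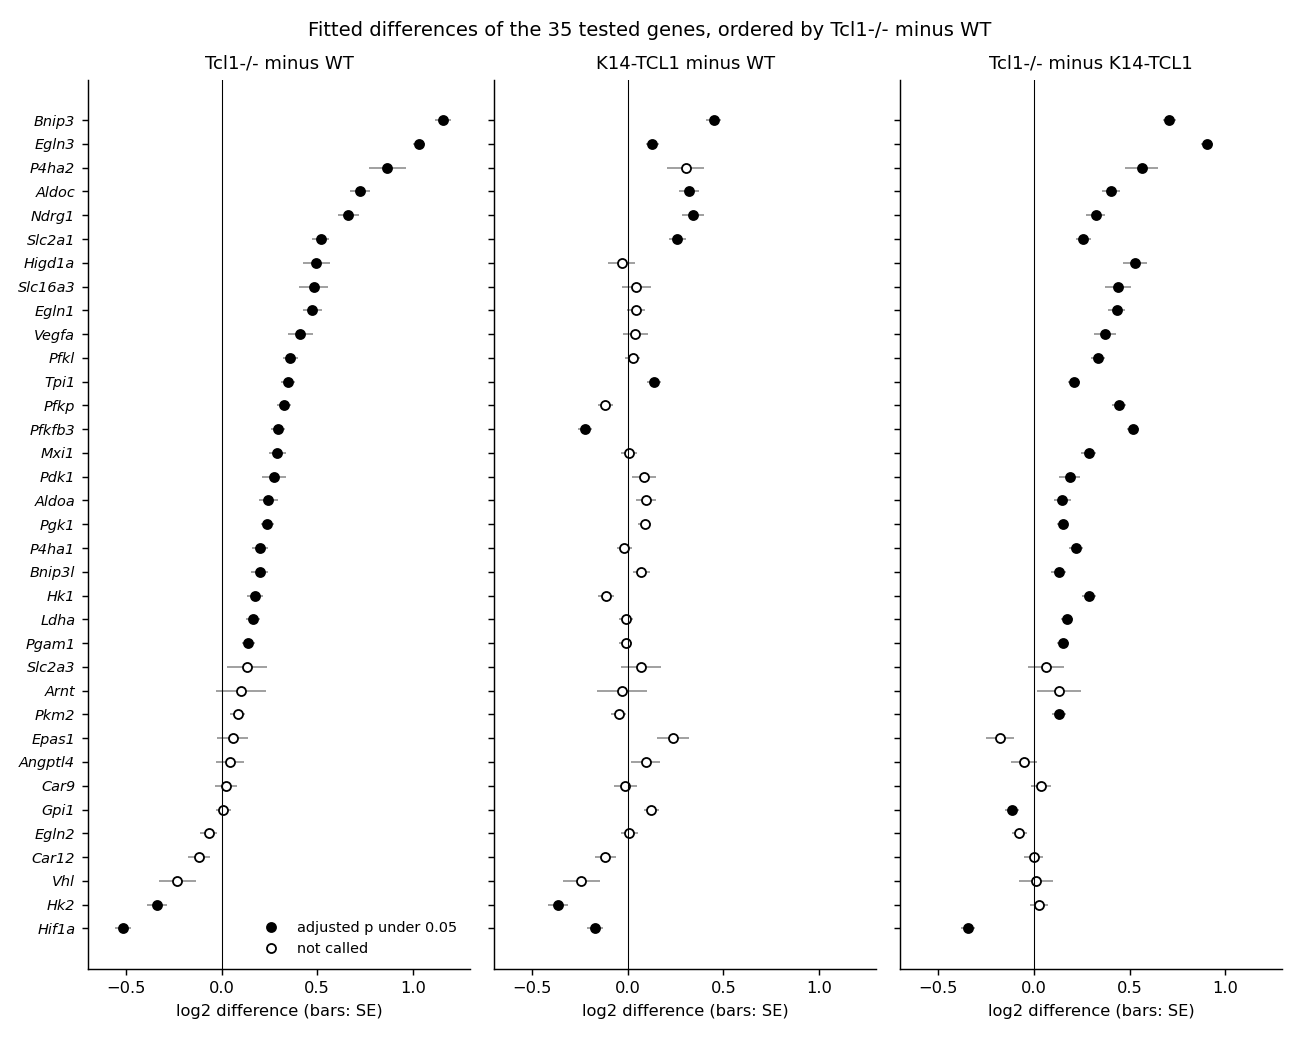
Fitted log2 differences (x axis) of the 35 tested genes in 3 comparisons, with bars of 1 SE and filled points for an adjusted p under 0.05. For Tcl1-/- minus WT, Bnip3 and Egln3 lie farthest right and Hif1a farthest left, and most K14-TCL1 points lie close to 0.

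Cell type markers were read beside these counts, against the same shares over all tested genes. The 8 basal KC markers summed to 53040 to 53550 in Tcl1-/-, 53480 to 54240 in K14-TCL1 and 54080 to 54510 in WT. Of them, 2 exceeded WT and 1 lay below it in Tcl1-/-, and 2 exceeded WT and 4 lay below it in K14-TCL1. For Langerhans cells, 5 of 6 markers were higher in Tcl1-/- than in WT, with sums of 9348 to 9725 in Tcl1-/-, 7837 to 7901 in K14-TCL1 and 6844 to 7061 in WT. Activated KC markers summed to 8717 to 8942 in Tcl1-/-, 30460 to 31210 in K14-TCL1 and 20750 to 21020 in WT, with 6 of 6 lower in Tcl1-/- than in WT. Fibroblast markers summed to 2639 to 2778, 2859 to 3010 and 5399 to 5465, with 2 of 4 tested lower in Tcl1-/- than in WT and 4 of 8 under the filter. Most of each sum came from Postn alone, at 2410 to 2546, 2587 to 2735 and 5105 to 5158, so the sums mainly follow that gene. The part of these cells in the results was not tested.

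Among the oxygen sensing genes, Egln1 and Egln3 rose in Tcl1-/- where Hif1a fell. Hif1a encodes the inducible subunit of most cell types. Its intensities were 1088, 1093 and 1104 on the Tcl1-/- arrays, 1376, 1443 and 1355 on the K14-TCL1 arrays and 1533 and 1598 on the WT arrays. No array of 1 genotype overlapped another, and K14-TCL1 lay between the other two. The log2 difference was -0.52 ± 0.041 (SE) against WT (adjusted p = 5.8e-05) and -0.35 ± 0.037 against K14-TCL1 (adjusted p = 0.000472). K14-TCL1 differed from WT by -0.17 ± 0.041 (adjusted p = 0.0205), a call that did not hold without either WT array (adjusted p = 0.0576 and 0.14) or without K14-TCL1 replicate 1 or 3 (0.0588 and 0.0568). In the fit over all single probe sets, a second Hif1a probe set gave -0.68 against WT in Tcl1-/- (adjusted p = 1.78e-05) and -0.24 in K14-TCL1 (adjusted p = 0.00621). One more probe set gave -0.64 in Tcl1-/- and was not called (adjusted p = 0.0719).

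Egln3, an oxygen-dependent prolyl hydroxylase that is itself a HIF target, rose 2.05-fold in Tcl1-/-. Its intensities were 2139.5, 2121 and 2160.0 in Tcl1-/-, 1148, 1134 and 1147 in K14-TCL1 and 1046 and 1046 in WT. The Tcl1-/- arrays stood far above the other 5, which spanned a narrow range. The difference was 1.03 ± 0.033 against WT (adjusted p = 3.28e-07) and 0.90 ± 0.029 against K14-TCL1 (adjusted p = 3.05e-07), and a second probe set gave 1.00 and 1.03. For K14-TCL1 against WT the difference was 0.13 ± 0.033 (adjusted p = 0.0264). The second probe set put that difference at -0.024 (adjusted p = 0.815), and the call was lost without either WT array (0.124 and 0.118) or without K14-TCL1 replicate 1 or 3 (0.0688 and 0.0618).

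Egln1, the main oxygen sensor of most cells, rose by 0.47 ± 0.049 in Tcl1-/- (adjusted p = 0.000238), while K14-TCL1 differed from WT by 0.042 ± 0.049 (adjusted p = 0.579). Both Egln1 probe sets were called higher in Tcl1-/-. Egln2, the sensor that low oxygen does not induce, differed by -0.068 ± 0.043 (adjusted p = 0.283). Epas1, the other HIF alpha subunit, read 72.5, 72.1 and 77.7 in Tcl1-/-, 87.2, 91.1 and 74.0 in K14-TCL1 and 70.6 and 71.7 in WT. Its Tcl1-/- arrays overlapped those of K14-TCL1, and its differences from WT, 0.057 ± 0.082 and 0.24 ± 0.082, did not pass (adjusted p = 0.657 and 0.0771). Arnt, the partner subunit, and Vhl, the ligase subunit, did not pass either, at 0.10 ± 0.13 and -0.23 ± 0.098 in Tcl1-/- against WT (adjusted p = 0.62 and 0.117). Vhl lay close to the filter and passed it only through WT. On GRCm38.p6, Hif1a and Egln3 lie on chromosome 12, which also carries Tcl1, 31.3 and 51.0 Mb from it.

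All 4 mitochondrial genes among the HIF targets rose in Tcl1-/-, where 14.4% of all tested genes were called higher. Bnip3 had the largest difference from WT of the 35 genes. Bnip3 and its relative Bnip3l encode outer membrane receptors that mark mitochondria for removal. Bnip3 read 1117, 1139.6 and 1154 in Tcl1-/-, 672, 700.4 and 716 in K14-TCL1 and 510.3 and 509 in WT. The 3 genotypes were apart, with K14-TCL1 nearer to WT. The difference from WT was 1.16 ± 0.040 in Tcl1-/- (adjusted p = 5.39e-07) and 0.45 ± 0.040 in K14-TCL1 (adjusted p = 0.000165), and that between the mutants was 0.71 ± 0.035 (adjusted p = 6.4e-06). Bnip3l rose far less, by 0.20 ± 0.045 in Tcl1-/- (adjusted p = 0.0131), and in K14-TCL1 it differed from WT by 0.07 ± 0.045 (adjusted p = 0.309).

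Higd1a, an inner membrane protein of mitochondria induced by low oxygen, separated Tcl1-/- from both other genotypes. It read 503, 533 and 464 in Tcl1-/-, 321, 359 and 361 in K14-TCL1 and 351 and 359 in WT, where the last 2 overlapped. The difference was 0.49 ± 0.070 against WT (adjusted p = 0.00143) and 0.53 ± 0.063 against K14-TCL1 (adjusted p = 0.000794), with K14-TCL1 at -0.032 ± 0.070 from WT (adjusted p = 0.778). A brighter probe set shared with another gene gave 0.21 and 0.093, and with it the second call was lost (adjusted p = 0.101). Pdk1, the kinase that shuts pyruvate dehydrogenase, rose by 0.27 ± 0.061 in Tcl1-/- (adjusted p = 0.0124). K14-TCL1 was at 0.084 ± 0.061 from WT (adjusted p = 0.364).

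Both collagen prolyl hydroxylase subunits were called higher in Tcl1-/-, P4ha1 by 1 of its 2 probe sets, against 14.4% of all tested genes. P4ha2 read 115, 115 and 105 in Tcl1-/-, 76.8, 80.6 and 69.0 in K14-TCL1 and 55.1 and 67.7 in WT. All Tcl1-/- arrays lay above the others, and the lowest K14-TCL1 array lay just above the higher WT array. Tcl1-/- exceeded WT by 0.87 ± 0.097 (adjusted p = 0.00039) and K14-TCL1 was 0.30 ± 0.097 from WT, which did not pass (adjusted p = 0.0573). P4ha1 rose by 0.20 ± 0.042 (adjusted p = 0.0087), while its dimmer probe set gave 0.048 and was not called (adjusted p = 0.734).

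Ndrg1, a protein of stressed and differentiating cells, rose in both mutants. It read 823, 839 and 776 in Tcl1-/-, 650.2, 688 and 613 in K14-TCL1 and 513 and 513 in WT, in steps without overlap. The differences from WT were 0.66 ± 0.056 and 0.34 ± 0.056 (adjusted p = 7.59e-05 and 0.00407). All 5 Ndrg1 probe sets were called higher in Tcl1-/- than in WT, but 2 of them were not called in K14-TCL1, at 0.18 and 0.078 (adjusted p = 0.282 and 0.69). Mxi1, which opposes MYC, rose in Tcl1-/-, by 0.29 ± 0.043 (adjusted p = 0.00175), and was 0.0057 from WT in K14-TCL1 (adjusted p = 0.941).

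Of the secreted factors, Vegfa, which draws blood vessels towards tissue, read 154, 139 and 144 in Tcl1-/-, 112, 114 and 111 in K14-TCL1 and 117 and 102 in WT. The K14-TCL1 values lay inside the WT range. Tcl1-/- exceeded WT by 0.41 ± 0.065 (adjusted p = 0.0024) and K14-TCL1 by 0.37 ± 0.058 (adjusted p = 0.00269). A dimmer Vegfa probe set gave 0.034 against WT and was not called (adjusted p = 0.721). Angptl4, an inhibitor of lipoprotein lipase, differed by 0.043 ± 0.075 in Tcl1-/- (adjusted p = 0.718). Adm, a vessel-widening peptide, read 14.2 to 20.2 over the 8 arrays, under the filter.

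The surface enzymes of acid handling were not called. Car9, a carbonic anhydrase often used as a mark of hypoxia, was 0.022 ± 0.059 from WT in Tcl1-/- and -0.013 ± 0.059 from WT in K14-TCL1 (adjusted p = 0.822 and 0.899). Its relative Car12 differed by -0.12 ± 0.057 and -0.12 ± 0.057 (adjusted p = 0.162 and 0.181). The lactate exporter Slc16a3 rose by 0.48 ± 0.076 in Tcl1-/- (adjusted p = 0.0024), and was 0.044 ± 0.076 from WT in K14-TCL1 (adjusted p = 0.714).

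**Figure D3:**
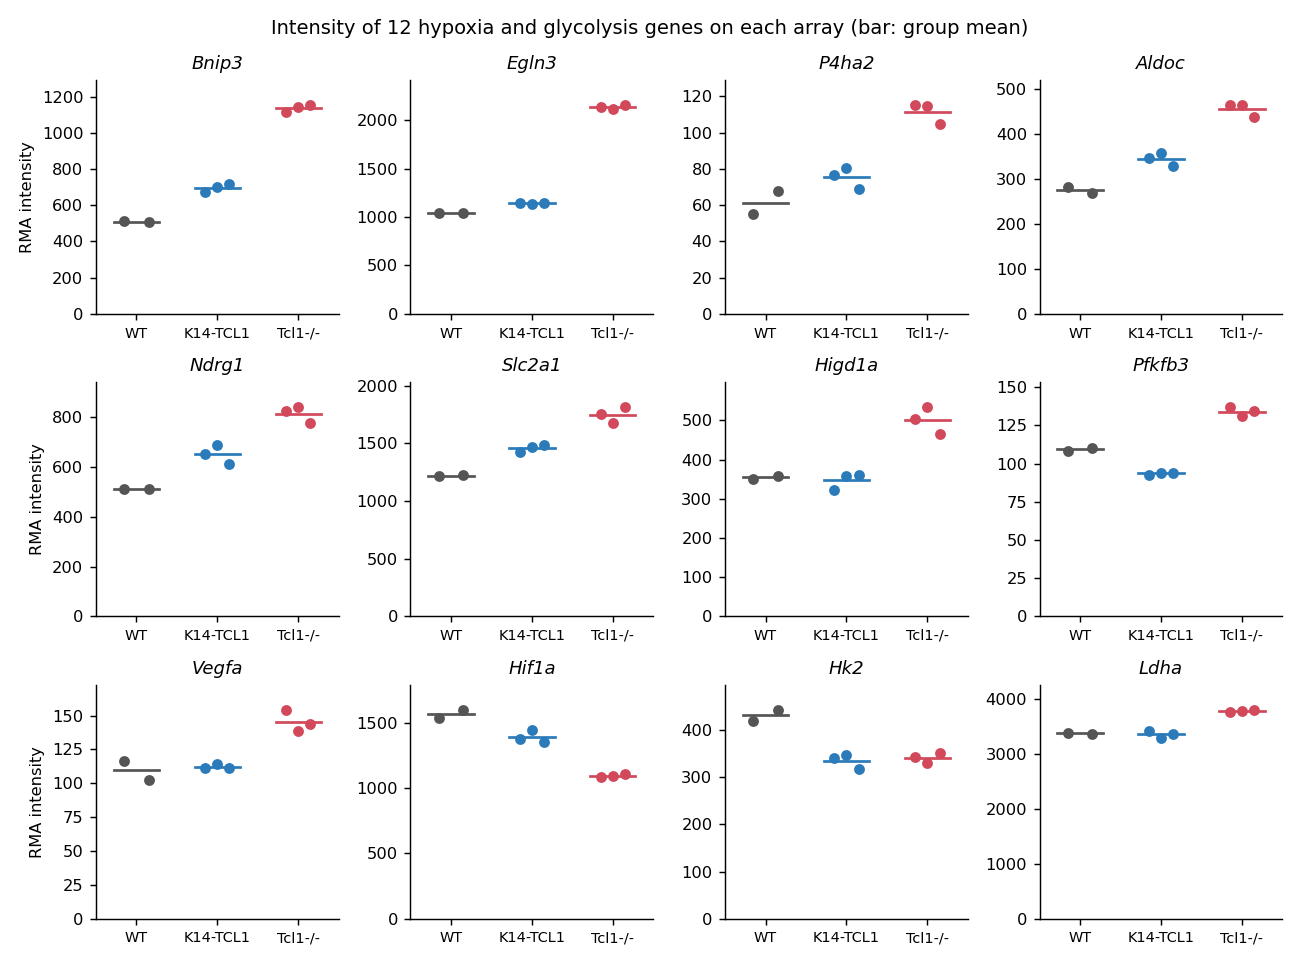
RMA intensity (y axis, linear, from 0) of 12 genes on each array, with a bar at the mean of each genotype (WT n = 2, K14-TCL1 n = 3, Tcl1-/- n = 3). Tcl1-/- arrays stand highest for 10 of the 12 genes and lowest for Hif1a, while both mutants lie below WT for Hk2.

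Along glycolysis, genes from glucose uptake to lactate export were called higher in Tcl1-/- than in WT, but Slc2a3, Gpi1 and Pkm2 were not called and Hk2 was lower. Slc2a1, the main glucose carrier of KCs, read 1752, 1679 and 1812 in Tcl1-/-, 1426, 1469.9 and 1486 in K14-TCL1 and 1216 and 1225 in WT. The genotypes did not overlap, and K14-TCL1 lay about midway: the difference was 0.52 ± 0.043 for Tcl1-/- over WT, 0.26 ± 0.043 for K14-TCL1 over WT and 0.26 ± 0.038 between the mutants (adjusted p = 7.03e-05, 0.00422 and 0.0022). All 3 Slc2a1 probe sets were called higher in each of the 3 comparisons. Slc2a3, a second carrier, was dim at a mean of 34.8 to 38.2 and differed by 0.13 ± 0.10 in Tcl1-/- (adjusted p = 0.399).

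The hexokinases, which trap glucose in the cell, parted. Hk2, the inducible form and a HIF target, read 341, 329 and 351 in Tcl1-/-, 340.0, 346 and 317 in K14-TCL1 and 418 and 442 in WT. Both mutants lay below WT and overlapped each other. The difference from WT was -0.34 ± 0.052 in Tcl1-/- and -0.36 ± 0.052 in K14-TCL1 (adjusted p = 0.00212 and 0.0021), and 0.026 ± 0.046 between the mutants (adjusted p = 0.72). Hk1, the form most tissues use, rose by 0.17 ± 0.041 in Tcl1-/- (adjusted p = 0.0159) and stood 0.29 ± 0.037 above K14-TCL1 (adjusted p = 0.00112). A second Hk1 probe set gave 0.13 against WT in Tcl1-/-, which did not pass (adjusted p = 0.111), and -0.32 in K14-TCL1, which did (adjusted p = 0.00512).

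Against 14.4% of all tested genes called higher, 5 of 6 tested genes in the upper part of the pathway rose in Tcl1-/-. Gpi1, the isomerase, was the one that did not, at 0.0074 ± 0.040 against WT (adjusted p = 0.915), and it differed from K14-TCL1 by -0.12 ± 0.035 (adjusted p = 0.0438), a call that was lost in the fit over all single probe sets (adjusted p = 0.057). Another probe set gave 0.22 against WT (adjusted p = 0.00985). Against K14-TCL1 it gave 0.12 (adjusted p = 0.0548) and one more gave 0.036 (adjusted p = 0.596), both of the opposite sign, so the direction depended on the probe set. The phosphofructokinases Pfkl and Pfkp, which commit sugar to glycolysis, rose by 0.36 ± 0.040 and 0.33 ± 0.038 (adjusted p = 0.000391 and 0.000525). In K14-TCL1 they differed from WT by 0.025 ± 0.040 and -0.12 ± 0.038, and neither passed (adjusted p = 0.691 and 0.0604).

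Pfkfb3, which makes the potent activator of phosphofructokinase, was the 1 listed gene called on opposite sides of WT in the 2 mutants. It read 137, 131 and 134 in Tcl1-/-, 92.8, 94.1 and 93.8 in K14-TCL1 and 108 and 110.4 in WT, without overlap. The difference was 0.30 ± 0.036 in Tcl1-/- (adjusted p = 0.000658) and -0.22 ± 0.036 in K14-TCL1 (adjusted p = 0.00389), and 0.52 ± 0.032 between the mutants (adjusted p = 2.54e-05). A dimmer probe set put K14-TCL1 at 0.042 from WT (adjusted p = 0.711), so the fall rested on the brighter one.

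Aldoc, an aldolase form best known from brain, showed the largest rise of the glycolysis genes. It read 463, 465 and 437 in Tcl1-/-, 347, 358 and 328 in K14-TCL1 and 283 and 269 in WT, in steps without overlap. The difference from WT was 0.72 ± 0.051 and 0.32 ± 0.051 in the 2 mutants (adjusted p = 3.35e-05 and 0.00373), and 0.40 ± 0.046 between them (adjusted p = 0.000665). Aldoa, the main aldolase of most tissues, rose by 0.24 ± 0.051 in Tcl1-/- (adjusted p = 0.00924; 0.054 for another probe set at 0.20), and Tpi1, the triose isomerase, by 0.35 ± 0.036 (adjusted p = 0.000284). Tpi1 was also higher in K14-TCL1, by 0.14 ± 0.036 (adjusted p = 0.0309), although its other probe sets, at 0.14 and -0.025, were not called there.

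Differences in the lower part were smaller. Pgk1, the first step that yields ATP, rose by 0.24 ± 0.034 in Tcl1-/- and the mutase Pgam1 by 0.14 ± 0.035 (adjusted p = 0.00145 and 0.0206). Other Pgk1 probe sets gave 0.10, which was not called (adjusted p = 0.113), and 0.16, which was (adjusted p = 0.0336). Ldha, which turns pyruvate into lactate, read 3749, 3767 and 3796 in Tcl1-/-, 3407, 3275 and 3359 in K14-TCL1 and 3376 and 3358 in WT. The Tcl1-/- arrays were above all others, and the K14-TCL1 arrays spanned the WT ones. The Ldha difference was 0.16 ± 0.035 against WT (adjusted p = 0.00996) and 0.17 ± 0.031 against K14-TCL1 (adjusted p = 0.00536), and the first missed the threshold when either WT array was left out (adjusted p = 0.0583 and 0.0622). Pkm2, the pyruvate kinase, read 3569, 3474 and 3432 in Tcl1-/-, 3244, 3110.4 and 3202 in K14-TCL1 and 3369 and 3219 in WT. It exceeded K14-TCL1 by 0.13 ± 0.036 (adjusted p = 0.0275), a call that was lost without any of the 3 Tcl1-/- arrays or without K14-TCL1 replicate 2 or 3 (adjusted p = 0.0502 to 0.0944), and WT by 0.084 ± 0.040, which did not pass (adjusted p = 0.16).

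Gapdh and Eno1 had no probe set of their own. A fit of 9733 features, chosen after seeing this, added 1 shared probe set for each of them. The shared Gapdh probe set read 7881, 8041 and 7878 in Tcl1-/-, 8393, 8302 and 8147 in K14-TCL1 and 7762 and 7756 in WT. Its differences from WT, 0.032 ± 0.034 and 0.094 ± 0.034, did not pass (adjusted p = 0.538 and 0.088). A shared Eno1 probe set, which near-identical copies of the gene may also bind, gave 0.23 ± 0.036 in Tcl1-/- (adjusted p = 0.00206) and 0.15 ± 0.036 in K14-TCL1 (adjusted p = 0.0214). The gene and its copies could not be told apart.

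**Figure D4:**
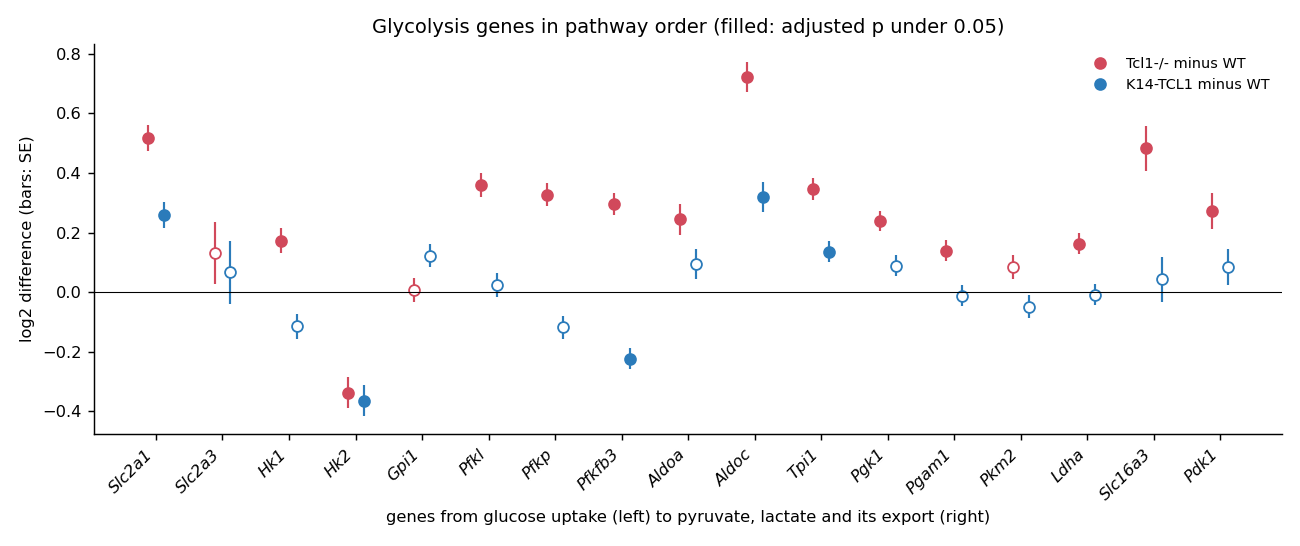
Log2 difference from WT (y axis, bars of 1 SE) of 17 genes in the order of glycolysis, for Tcl1-/- and K14-TCL1, filled where the adjusted p is under 0.05. Tcl1-/- points lie above 0 except at Hk2, with Gpi1 close to 0, and K14-TCL1 points scatter around 0 apart from Slc2a1, Aldoc and Tpi1 above and Hk2 and Pfkfb3 below.

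Each probe set was also read on its own. The listed genes had 74 probe sets with 1 gene name, of which 65 passed the filter, and 19 genes had several. Of the 65, 45 exceeded WT in Tcl1-/- and 3 lay below it, where 12% and 10.7% of all 15372 probe sets were called. In K14-TCL1 against WT, 10 were higher and 5 lower, against 9.02% and 8.87%. Between Tcl1-/- and K14-TCL1, 40 were higher and 2 lower, against 12.7% and 10.3%. In no comparison did probe sets of 1 gene receive calls of opposite sign.

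Other genes of the same pathways, listed outside the 40, were read from the same fit. The counts in this and the following paragraphs stand against the shares over all tested genes. These were 14.4% higher and 12.2% lower in Tcl1-/- against WT, and 11.7% and 9.84% in K14-TCL1 against WT. For Tcl1-/- against K14-TCL1 they were 13.9% and 12.7%. Of 31 tested further hypoxia targets, 12 exceeded WT in Tcl1-/- and 4 lay below it, 5 were higher and 1 lower in K14-TCL1, and 9 higher and 2 lower in Tcl1-/- than in K14-TCL1. Their median difference in Tcl1-/- against WT was 0.13. Ddit4, an inhibitor of mTORC1, rose by 0.54 ± 0.039 and 0.31 ± 0.039 in Tcl1-/- and K14-TCL1 (adjusted p = 3.58e-05 and 0.000984), and the cyclin Ccng2 by 0.61 ± 0.047 and 0.33 ± 0.047 (adjusted p = 4.95e-05 and 0.00206). Ak4, a mitochondrial adenylate kinase, rose by 0.50 ± 0.053 in Tcl1-/- (adjusted p = 0.000288) and was -0.047 ± 0.053 from WT in K14-TCL1 (adjusted p = 0.568). Bhlhe40, Gbe1 and Klf3, named after their values were seen, were among those lower in Tcl1-/- than in WT.

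Of 12 further genes of oxygen sensing, 3 exceeded WT in Tcl1-/- and 0 lay below it in limma. In K14-TCL1 against WT, 3 were also called higher and 0 lower. At an unadjusted p under 0.05 there were again 0 below WT in either mutant. Cited2, which competes with HIF for its coactivators, rose by 0.49 ± 0.046 in Tcl1-/- and 0.30 ± 0.046 in K14-TCL1 (adjusted p = 0.000156 and 0.00318). Siah1a, a ubiquitin ligase that targets EGLN proteins, rose by 0.24 ± 0.048 and 0.20 ± 0.048 (adjusted p = 0.00712 and 0.0204), and Hif3a, an inhibitory HIF subunit in several forms, by 0.23 ± 0.070 and 0.28 ± 0.070 (adjusted p = 0.0401 and 0.0228).

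The other forms of the glycolytic enzymes mostly did not pass. Of 12 tested, 1 exceeded WT in Tcl1-/-, and the same gene was higher in Tcl1-/- than in K14-TCL1. It was Ldhb, the lactate dehydrogenase form that favours pyruvate. Ldhb read 408, 394 and 397 in Tcl1-/-, 328, 346 and 324 in K14-TCL1 and 259.7 and 246 in WT, without overlap, and differed from WT by 0.66 ± 0.045 and 0.40 ± 0.045 (adjusted p = 2.55e-05 and 0.000591). Of 4 other glucose carriers, the fructose carrier Slc2a5 rose by 0.23 ± 0.055 in Tcl1-/- (adjusted p = 0.0153), and the sodium-coupled Slc5a1 fell in K14-TCL1 with a difference of -0.37 ± 0.051 (adjusted p = 0.00173).

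Of 10 genes for the fate of pyruvate and lactate, 1 exceeded WT in Tcl1-/- and 3 lay below WT in K14-TCL1. The higher one was Pdk3, another inhibitor of pyruvate dehydrogenase, at 0.33 ± 0.052 (adjusted p = 0.00244). The lower ones in K14-TCL1 were Pcx, Slc16a1 and Dld, at -0.21 ± 0.059, -0.19 ± 0.053 and -0.17 ± 0.048 (adjusted p = 0.0404, 0.0335 and 0.0347). They encode pyruvate carboxylase, a lactate carrier and a subunit shared by several dehydrogenase complexes. Of 7 pentose phosphate genes, Pgd rose in Tcl1-/- by 0.12 ± 0.040 (adjusted p = 0.0484) and Pgls in K14-TCL1 by 0.23 ± 0.035 (adjusted p = 0.00286). Of 3 tested genes of gluconeogenesis, Pck2 and Fbp2 rose in Tcl1-/-, by 0.27 ± 0.046 and 0.34 ± 0.10 (adjusted p = 0.00378 and 0.0395), and Pck2 in K14-TCL1 by 0.23 ± 0.046 (adjusted p = 0.0106).

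The remaining marker lists and the array quality were read in the same way. T cell markers summed to 761.8 to 785 in Tcl1-/-, 839.3 to 866.5 in K14-TCL1 and 663.1 to 677.9 in WT, with 2 of 4 tested higher in Tcl1-/- and 3 of 4 in K14-TCL1 than in WT. Melanocyte markers summed to 224.2 to 237.4, 236.9 to 251.1 and 197.8 to 202.1, with 1 of 3 tested (Dct) higher in each mutant than in WT. Red blood cell markers summed to 80.5 to 91.4 over all arrays, with 3 of 4 under the filter. Macrophage and neutrophil markers were higher in Tcl1-/- than in WT for 3 of 4 tested, with sums of 1424 to 1483 against 1048 to 1094. Camp, Itgam, Mpo and Ngp were under the filter, and Csf1r made up most of these sums (1143 to 1195 against 788 to 854). Adipocyte and sebocyte markers were higher for 3 of 4, with 5581 to 5648 against 4495 to 4612. There Adipoq, Cidec, Fabp4 and Mc5r were under the filter, and Scd1 made up most of the sums (4812 to 4921 against 3927 to 4029). Spinous and granular KC markers summed to 58730 to 59270 in Tcl1-/-, 53430 to 54200 in K14-TCL1 and 57400 to 58400 in WT. Skeletal muscle, which is rich in glycolytic enzymes, left little signal: 7 of 10 markers were under the filter, 0 of the 3 tested were called by limma in any comparison or had an unadjusted p under 0.05, and the sums were 254.7 to 274.1 over all arrays. Endothelial sums were 213.4 to 256.5 with 5 of 8 markers under the filter. The log2 gap between the 3′ and 5′ control probe sets was 0.507 to 0.553 for Gapdh and 0.986 to 1.17 for Actb, highest on K14-TCL1 replicate 2 for both.

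**Figure D5:**
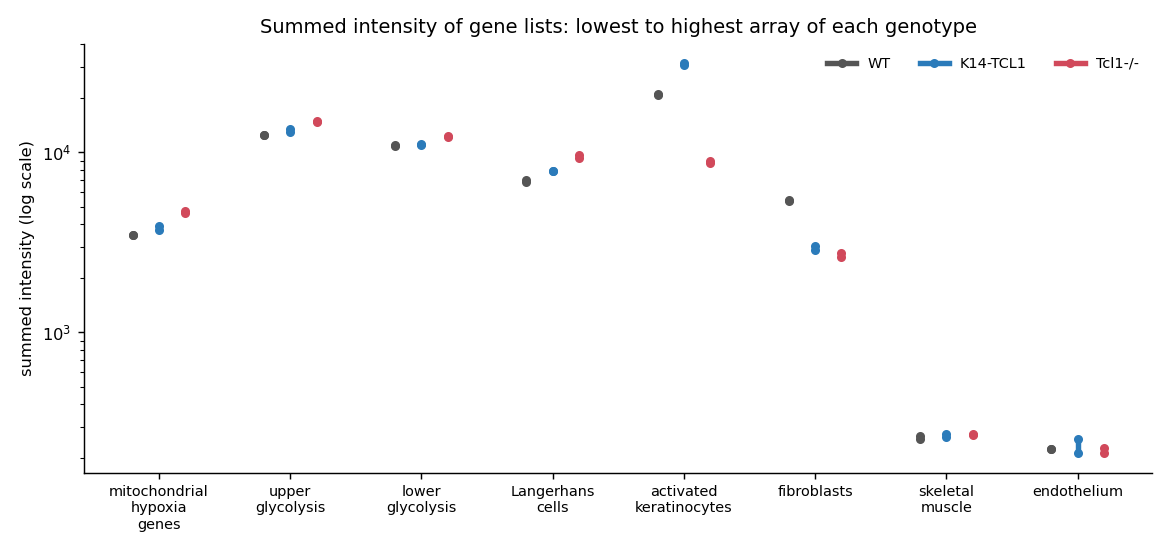
Summed RMA intensity (y axis, log scale) of 3 groups of the followed genes and 5 marker lists, drawn from the lowest to the highest array of each genotype. The glycolysis and mitochondrial sums are highest in Tcl1-/-, as are those of Langerhans cells, while muscle and endothelium stay low in all 3 genotypes.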

How the data were processed

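Total RNA of epidermal sheets in 8 samples was hybridised to Affymetrix arrays, 1 array a sample. The authors deposited RMA intensity values on a linear scale, background-corrected, quantile-normalized and summarised per probe set, and the same values were deposited in both tables. Arrays give no read depth, and their number limits the precision. Quantile normalization makes all arrays share 1 distribution, so a shift of all genes cannot be seen. The steps added here were log2 without a pseudocount, naming of 22690 probe sets through the platform annotation and RefSeq symbols (21556 had 1 name, 578 several and 492 none, and 64 were controls), and 1 probe set a gene, the one with the highest mean log2. Of 13201 genes, 9731 whose highest genotype mean reached 5 (log2) were tested.

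Differences were fitted with limma 3.58.1 in R 4.3.3 over all 8 arrays (5 residual and 3.32 prior degrees of freedom), with Benjamini-Hochberg adjustment over all tested genes in each comparison. Labels give no batch, and p-values set each difference against the spread between these samples within a genotype. The listed genes and other lists were chosen with earlier results of these data known. Values on every array are given for genes called in at least 1 comparison with a difference of at least 0.5 (log2), and for Hif1a, Epas1, Vegfa, Slc2a1, Hk2, Gapdh, Ldha and Pkm2. Up to 4 called genes of each further pathway list were named by smallest p, and some items are not reported here. The fit was tested on simulated data. The alternatives were other filters, probe set rules, normalizations, pseudocounts, variance models, the compared genotypes alone, the methods' criteria, a replicate block and leaving out each array.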

Additional observations from a re-analysis of the deposited data

How the results depend on the processing

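The 32 results for single named genes kept their direction in all 704 alternative values and their call in 678; 26 calls were lost, mostly for Egln3 (8) and Hif1a (7) in K14-TCL1 against WT and Pkm2 (6) in Tcl1-/- against K14-TCL1. The mean of all probe sets ended the calls of Aldoc and Pfkfb3 in K14-TCL1 against WT (adjusted p = 0.364 and 0.181). Leaving out 1 array at a time gave 17 to 23 listed genes higher and 2 to 3 lower in Tcl1-/- than in WT, with 17 without WT replicate 2, while 14.5% to 30% of all genes were called. It gave 4 to 8 higher and 2 to 4 lower in K14-TCL1 against WT (9.97% to 22.7% of all genes), and 20 to 22 higher and 1 to 2 lower in Tcl1-/- against K14-TCL1 (18.3% to 26.5%). Without the filter 16.3%, 12.4% and 15.8% of all genes were called in these comparisons. The count lower in Tcl1-/- than in K14-TCL1 was 1, in place of 2, without the filter, without probe sets of the _x or _s kind, with every probe set, with the mean of probe sets, with the 2 genotypes alone and with a replicate block. In K14-TCL1 against WT, the mean of probe sets left 3 higher and a variance trend gave 5 lower. The methods' criteria kept 369 probe sets, among them 3 listed genes, so that 3, 1 and 3 were higher and 0, 0 and 0 lower in limma, with 74.3%, 61.2% and 61.8% of the probe sets called. The replicate block gave 21 higher and 2 lower, 5 and 2, and 21 and 1 in the 3 comparisons, with 21%, 15.8% and 21.9% of all genes called. Arrays with the same number did not deviate together (r from -0.061 to 0.057 across genes). Deviations from means of 2 or 3 arrays are tied to each other, so these values cannot exclude a shared batch or litter. Whether the numbers pair the samples is not given by the labels. Except where stated, the cause was not tested. With 2 WT arrays, small differences from WT are the least certain.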
